A study of Mus musculus with 6 samples.

Results

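The insulin-like growth factor (IGF) family was described here by 10 genes, the ligands *Igf1* and *Igf2*, the receptors *Igf1r* and *Igf2r* and the binding proteins *Igfbp2*, *Igfbp3*, *Igfbp4*, *Igfbp5*, *Igfbp6* and *Igfbp7*, which were chosen by gene symbol from the 17854 genes of the expression table. All 10 were found, and all 10 passed the expression filter, together with 14289 genes in all. The study injected mesenchymal stromal cells (MSCs) into arthritic knees of mice and sequenced the Tomato+ cells that were later taken from the cartilage. IGF1 acts on cartilage as a growth factor for matrix synthesis. The comparison asks how the family was expressed in libraries that the study took as derived from injected MSCs and in those of resident cells.

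The MSC-derived group held 3 libraries of Tomato+ cells sorted from the repaired cartilage of male C57BL/6 mice. In these mice osteoarthritis had been induced by transection of the anterior cruciate ligament, and *Prrx1*-lineage MSCs from the inguinal white adipose tissue of *Prrx1-Cre; R26tdTomato* donors had then been injected into the joint. The endogenous group held 3 libraries of articular Tomato+ cells from male *Prrx1-Cre; R26tdTomato* mice on the same background, matched for age, for which neither surgery nor injection is described. *Prrx1-Cre* is active in limb mesenchyme, so Tomato marks the descendants of cells that once expressed *Prrx1*, whatever they have become. Surgery, cell source and host genotype all differ between the groups and cannot be told apart. The time from injection to harvest for these libraries is not given in the sources used here, and the sort described used Tomato alone, with no step to remove blood cells. MSC-derived cells and endogenous cells therefore mean here whatever cells the libraries of each group held. The labels call all 6 samples chondrocytes, and 3 mice are stated for each group, but which library came from which mouse is not stated. The p-values therefore measure the spread between these libraries, which may be technical.

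IGF1 and IGF2 are secreted peptides that signal through the IGF1 receptor, a tyrosine kinase that recruits IRS and SHC adaptors and so turns on the PI3K/AKT and RAS/MAPK pathways. The IGF2 receptor, also called the cation-independent mannose 6-phosphate receptor, does not pass on this signal but takes IGF2 up for degradation and carries lysosomal enzymes. The binding proteins hold IGFs outside cells, can block or prolong their action, and are opened by proteases such as PAPP-A, while growth hormone, through GHR, JAK2 and STAT5, drives transcription of *Igf1* in liver and other tissues.

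RefSeq promoter windows on GRCm38.p6, from 250 bases before to 50 bases after a start site, were available for all 10 genes, as 14 windows in all. The 3 shown here belong to the gene that rose and to the binding protein genes with the highest levels, and they show how unlike these starts are. Each sequence runs 5′ to 3′ over the 250 bases before the start, and capitals mark a TATA box (TATAAA) or a GC box (GGGCGG or its reverse complement).
Igf1, chr10:87860861-87861110, plus strand: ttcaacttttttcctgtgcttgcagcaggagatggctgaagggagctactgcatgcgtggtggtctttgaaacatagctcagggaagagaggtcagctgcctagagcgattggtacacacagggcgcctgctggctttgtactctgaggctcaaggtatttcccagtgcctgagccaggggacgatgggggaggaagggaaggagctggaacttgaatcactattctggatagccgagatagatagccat
Igfbp4, chr11:99040994-99041243, plus strand: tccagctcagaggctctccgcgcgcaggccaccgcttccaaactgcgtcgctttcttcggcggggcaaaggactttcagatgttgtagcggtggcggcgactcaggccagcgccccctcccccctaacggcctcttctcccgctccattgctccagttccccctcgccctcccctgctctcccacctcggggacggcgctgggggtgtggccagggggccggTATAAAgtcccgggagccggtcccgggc
Igfbp7, chr5:77408046-77408295, minus strand: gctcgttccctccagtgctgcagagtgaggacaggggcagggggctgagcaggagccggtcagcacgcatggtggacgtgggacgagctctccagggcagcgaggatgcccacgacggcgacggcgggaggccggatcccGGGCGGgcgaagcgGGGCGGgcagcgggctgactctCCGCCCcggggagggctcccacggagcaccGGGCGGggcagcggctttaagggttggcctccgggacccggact

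Over its whole length the *Igf1* window held neither motif and 6 CpG dinucleotides, close to the median of 7 over all 32851 windows. The *Igfbp4* window held a TATA box 28 bases before the start and 27 CpGs, and the *Igfbp7* window held 4 GC boxes and 33 CpGs. The receptor windows were rich in CpG as well, with 48 for *Igf1r* and 34 for *Igf2r*. On either strand, TATAAA was present in 2 of the 14 windows and in 13.6% of all windows, and GGGCGG in 6 of the 14 and in 35.7% of all. A STAT element, TTCNNNGAA, was in 0 of the 14 and in 8.30% of all windows, which says only that these letters are not in these windows.

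The libraries held between 22060628 and 24881796 expected counts each, so that 3 counts, taken as the floor, corresponded to 0.121 to 0.136 CPM, which are counts scaled to a common library total. The floor covers counting error only. The MSC-derived libraries were close to each other, whereas endogenous replicate 1 stood apart, with 3459 genes at 0 counts against 1338 and 1395 in the other endogenous libraries, and results without it are given beside those it changed. Levels are in TPM, a share of all transcripts, which corrects for transcript length and so allows levels of different genes to be compared. On the log2(TPM + 1) scale the log2 fold changes of all genes were shifted by a median of -0.40 from edgeR's, so ratios of mean TPM differ from edgeR's folds. Fold changes and p-values come from edgeR's quasi-likelihood test on counts, with Benjamini-Hochberg adjustment over all 14289 genes, and a positive log2 fold change means higher in the MSC-derived libraries. SE stands for the standard error, always on the log2 scale. The median log2 fold change of all genes was 0.05, and in bulk RNA a lower level of a gene can mean fewer cells that express it or less RNA per cell, which cannot be told apart.

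Of the 10 genes, 1, *Igf1*, was higher in the MSC-derived cells and the other 9 were lower, at a threshold of 0.05 on the adjusted p. Over all genes tested, 61.6% were called, 31.3% higher and 30.3% lower. The log2 fold changes of the 10 ran from -4.05 to 2.54, with a median of -2.26. 6 of the 10 fell by 2 or more on the log2 scale, as did 13.6% of all genes, and *Igf1* rose by more than 2, as did 10.2%. The groups did not overlap in CPM for any of the 10 genes, as for 72.4% of all genes. All 10 calls held without endogenous replicate 1.

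**Figure D1:**
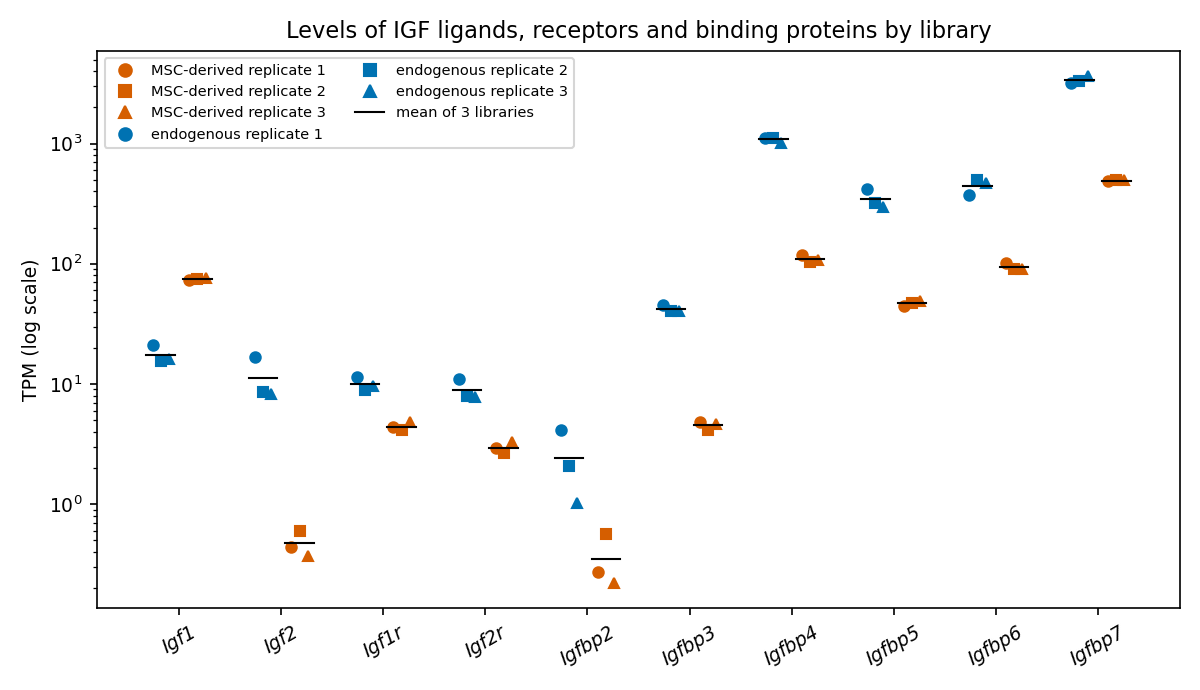
Levels of the 10 genes in each of the 6 libraries, in TPM on a log scale, with endogenous libraries in blue, MSC-derived libraries in orange and a line at the mean of each group of 3. *Igf1* is the only gene whose MSC-derived points, near 74.4 TPM, lie above the endogenous points, near 17.5 TPM.

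Of the ligands, *Igf1* had 73.4, 74.3 and 75.5 TPM in MSC-derived replicates 1 to 3 and 20.95, 15.4 and 16.2 TPM in endogenous replicates 1 to 3. The MSC-derived libraries were all high and nearly equal, and the endogenous libraries were all low, with replicate 1 a little above the other two. The means were 74.4 ± 1.05 and 17.5 ± 3.0 TPM (SD, n = 3 each). By edgeR the level was 5.80-fold higher in the MSC-derived libraries (SE 0.08, adjusted p = 2.93e-07), and the log2 fold change was 2.55 without endogenous replicate 1.

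*Igf2*, the ligand best known for its role in fetal growth and transcribed from the paternal allele, went the other way. It had 0.44, 0.60 and 0.37 TPM in the MSC-derived libraries, from 22, 26 and 16 counts, and 16.7, 8.57 and 8.25 TPM in the endogenous libraries, from 469, 249 and 288 counts. The MSC-derived libraries were all low, above the floor of 3 counts, and endogenous replicate 1 was the highest of the 6. The means were 0.470 ± 0.118 and 11.2 ± 4.79 TPM (SD, n = 3 each), and edgeR gave 16.5-fold lower (log2 fold change -4.05, SE 0.35, adjusted p = 4.10e-05). Without endogenous replicate 1 the log2 fold change was -3.76, and by limma on log2(FPKM + 1), a scale that understates changes of low genes, it was -2.31.

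The ligand pool therefore had a different composition in the groups. *Igf1* made up 99.2% to 99.5% of the summed ligand TPM in the MSC-derived libraries and 55.6% to 66.2% in the endogenous ones, where the ranges of *Igf1* and *Igf2* overlapped. The ratio of *Igf1* to *Igf2* ran from 123.9 to 203.9 in the MSC-derived libraries, against 1.25 to 1.96 in the endogenous libraries. In sum, both ligands came to 73.8 to 75.8 TPM against 24.0 to 37.7 TPM.

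Markers of blood cells moved with *Igf1*. Among all genes tested, 31.3% were called higher. All 12 macrophage markers on a list that included *Ptprc*, *Csf1r*, *Adgre1*, *Cd163* and *C1qa* were higher in the MSC-derived libraries, where they summed to 13994 to 14310 TPM, against 71.2 to 81.7 TPM in the endogenous libraries. *Adgre1*, which encodes the macrophage marker F4/80, had 327.6 ± 6.77 TPM against 1.29 ± 1.12 TPM (SD, n = 3 each), and *Vsig4* was at 0 counts in endogenous replicate 2. All 8 neutrophil markers were higher too, with a sum of 122139 to 131324 TPM against 5912 to 8868 TPM, as were all 8 erythroid markers, with 79132 to 81437 TPM against 18203 to 24586 TPM. The part of these cells in the level of *Igf1* was not tested.

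The genes with the profile most like that of *Igf1* were found by the root mean square distance between log2 CPM profiles over the 6 libraries, each centred on its mean, among genes with a mean log2 CPM of at least 5. Nearest were *Dram2*, a regulator of autophagy, at 0.02, *Acer3*, an alkaline ceramidase, at 0.04, *Sema4a*, a semaphorin, at 0.05, *Clec4d*, a C-type lectin receptor, at 0.05, and *Nlrp3*, the inflammasome sensor, at 0.06. Because the groups lie far apart, this distance mostly ranks genes by how near their fold change is to that of *Igf1*, and the log2 fold changes of these 5 genes ran from 2.47 for *Clec4d* to 2.60 for *Nlrp3*. For *Igf2* the nearest genes included *Scd1*, *Mylk*, *Lox* and *Synpo*, which encode a fatty acid desaturase, myosin light chain kinase, lysyl oxidase and synaptopodin. They lay farther off, at distances of 0.21 to 0.23, with log2 fold changes from -4.20 for *Mylk* to -3.68 for *Synpo*.

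Both receptors were lower in the MSC-derived cells, with smaller log2 fold changes than the 6 binding proteins. *Igf1r*, the signaling receptor, had 4.34, 4.13 and 4.79 TPM in the MSC-derived libraries and 11.5, 8.83 and 9.54 TPM in the endogenous libraries. The groups did not overlap, and the lowest endogenous library, replicate 2, was still well above the highest MSC-derived one. By edgeR it was 1.66-fold lower (log2 fold change -0.73, SE 0.10, adjusted p = 0.00053), the smallest change of the 10, and its log2 fold change ran from -1.01 by limma on log2(TPM + 1) to -0.49 by limma on log2(FPKM + 1).

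*Igf2r*, which clears IGF2, had 2.92, 2.66 and 3.27 TPM in the MSC-derived libraries and 10.9, 7.92 and 7.73 TPM in the endogenous libraries. Every MSC-derived library was below every endogenous one, and endogenous replicate 1 was again the highest. It was 2.19-fold lower (log2 fold change -1.13, SE 0.14, adjusted p = 0.000266, edgeR). Within a library *Igf1r* exceeded *Igf2r* in all 6, by a ratio of 1.46 to 1.55 in the MSC-derived libraries and 1.06 to 1.23 in the endogenous ones.

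*Igf1* was higher and *Igf1r* lower, so their ratio had to differ more than either gene alone. In bulk RNA the ligand and receptor transcripts need not come from the same cells. The ratio of *Igf1* to *Igf1r* was 16.9, 18 and 15.8 in MSC-derived replicates 1 to 3 and 1.82, 1.75 and 1.70 in endogenous replicates 1 to 3. It does not depend on the scaling between libraries, and the means were 16.9 ± 1.12 and 1.75 ± 0.0616 (SD, n = 3 each), 9.63-fold apart. An exact permutation test of 3 libraries against 3 cannot give a two-sided p below 0.1, so these ratios are given without a test.

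All 6 binding protein genes were lower in the MSC-derived cells, and 5 of them, all but *Igfbp2*, kept their call in every alternative setting that was run. *Igfbp7*, whose product binds IGFs weakly and also acts in the matrix and in vessels, was the highest of the 10 genes in either group. It had 484.7, 494.0 and 493.0 TPM in the MSC-derived libraries and 3178, 3299 and 3643 TPM in the endogenous libraries. The groups lay far apart with little spread inside them, at 490.6 ± 5.09 and 3373 ± 241.6 TPM (SD, n = 3 each), which edgeR put at 5.10-fold lower (SE 0.10, adjusted p = 9.82e-07).

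*Igfbp4*, an inhibitor of IGF action that PAPP-A cleaves, was second in both groups. Its levels were 117.3, 103.5 and 106.6 TPM in the MSC-derived libraries and 1123, 1110 and 1019 TPM in the endogenous libraries. No library of either group came near the other group. It showed the largest fall of the abundant binding proteins, 7.32-fold (log2 fold change -2.87, SE 0.08, adjusted p = 1.64e-07, edgeR).

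*Igfbp5*, the binding protein that adheres to bone and cartilage matrix, had 44.9, 47.2 and 48.7 TPM in the MSC-derived libraries and 417.4, 319.1 and 294.6 TPM in the endogenous libraries. Endogenous replicate 1 was above the other two, and all 3 were above every MSC-derived library. The change was 5.35-fold (log2 fold change -2.42, SE 0.10, adjusted p = 6.39e-07, edgeR).

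*Igfbp6*, which prefers IGF2 over IGF1, had 100.7, 90.8 and 90.01 TPM in the MSC-derived libraries and 375.7, 498.2 and 468.4 TPM in the endogenous libraries. Here endogenous replicate 1 was the lowest of its group, though still well above the MSC-derived libraries. It showed the smallest fall of the 6, 3.55-fold (log2 fold change -1.83, SE 0.16, adjusted p = 3.86e-05, edgeR), with a log2 fold change of -2.04 without endogenous replicate 1.

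*Igfbp3*, the main carrier of IGFs in blood, had 4.84, 4.14 and 4.65 TPM in the MSC-derived libraries and 45.4, 40.2 and 40.1 TPM in the endogenous libraries. The spread within each group was small beside the gap between them, and edgeR gave 6.77-fold lower (log2 fold change -2.76, SE 0.12, adjusted p = 8.87e-07).

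*Igfbp2* was the lowest of the 10 genes in both groups and the least certain. It had 6, 9 and 4 counts in the MSC-derived libraries, or 0.27, 0.56 and 0.22 TPM, and 41, 28 and 13 counts in the endogenous libraries, or 4.12, 2.08 and 1.03 TPM. The counts of the MSC-derived libraries were little above the floor, and the endogenous libraries were higher but spread over a wide range. It was 4.52-fold lower (log2 fold change -2.18, SE 0.67), with an adjusted p of 0.0243 by edgeR, which rose to 0.110, 0.0660 and 0.118 without MSC-derived replicates 1, 2 and 3, and to 0.0597 without endogenous replicate 2. Without endogenous replicate 1 it was 0.0136, and by DESeq2 0.0138.

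**Figure D2:**
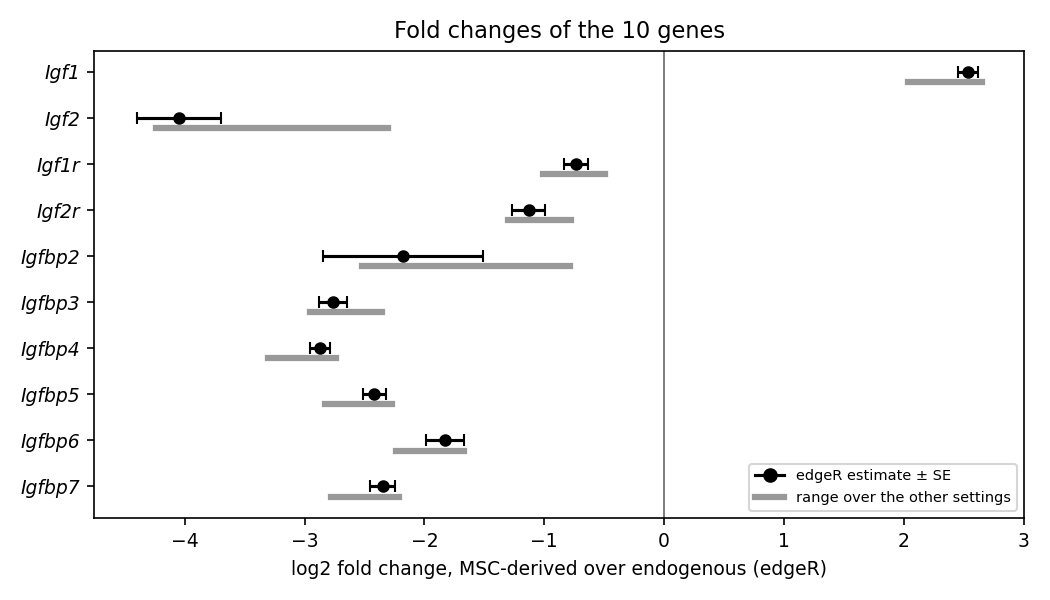
Log2 fold changes of the 10 genes, MSC-derived over endogenous, with points and bars for the edgeR estimate and its standard error (SE) and a grey line for the range over the other settings. All points but that of *Igf1* at 2.54 lie left of 0, from -0.73 for *Igf1r* to -4.05 for *Igf2*, and no grey line crosses 0.

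In the endogenous cells the mean levels followed the order *Igfbp7*, *Igfbp4*, *Igfbp6*, *Igfbp5*, *Igfbp3*, *Igf1*, *Igf2*, *Igf1r*, *Igf2r* and *Igfbp2*. The ranges of *Igfbp6* and *Igfbp5* overlapped, as did those of each neighbouring pair from *Igf1* to *Igf2r*. Within each endogenous library *Igf1* still exceeded *Igf2*, by a ratio of 1.25 to 1.96, and *Igf1r* exceeded *Igf2r*, by 1.06 to 1.23. The order of *Igfbp6* and *Igfbp5*, and that of *Igf2* and *Igf1r*, changed between the libraries and was not resolved. In the MSC-derived cells *Igf1* came right after *Igfbp7*, *Igfbp4* and *Igfbp6* and ahead of *Igfbp5*, and its range touched neither neighbour. After these came *Igfbp3* and *Igf1r*, whose ranges overlapped, then *Igf2r*, and last *Igf2* and *Igfbp2*, whose ranges overlapped as well.

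The 6 binding proteins summed to 740.2 to 752.6 TPM in the MSC-derived libraries and to 5143 to 5467 TPM in the endogenous libraries. Set against the summed ligands, this was a ratio of 10.2, 9.88 and 9.80 in MSC-derived replicates 1 to 3 and of 136.6, 219.6 and 223.8 in endogenous replicates 1 to 3. The MSC-derived ratios were low and alike, and the lowest endogenous ratio, in replicate 1 with its higher *Igf2*, was still far above them. The means were 9.96 ± 0.210 and 193.3 ± 49.2 (SD, n = 3 each). These are levels of mRNA and say nothing of how much protein was free or bound.

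The makeup of the binding protein pool differed less than its size. *Igfbp7* took 64.4% to 66.7% of the pool in the MSC-derived libraries and 61.8% to 66.6% in the endogenous ones, ranges that overlap. *Igfbp5* overlapped too, with 5.96% to 6.56% against 5.39% to 8.12%. *Igfbp4* had a smaller share in the MSC-derived libraries, 13.99% to 15.6% against 18.6% to 21.8%, and *Igfbp6* a larger one, 12.1% to 13.4% against 7.31% to 9.46%.

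**Figure D3:**
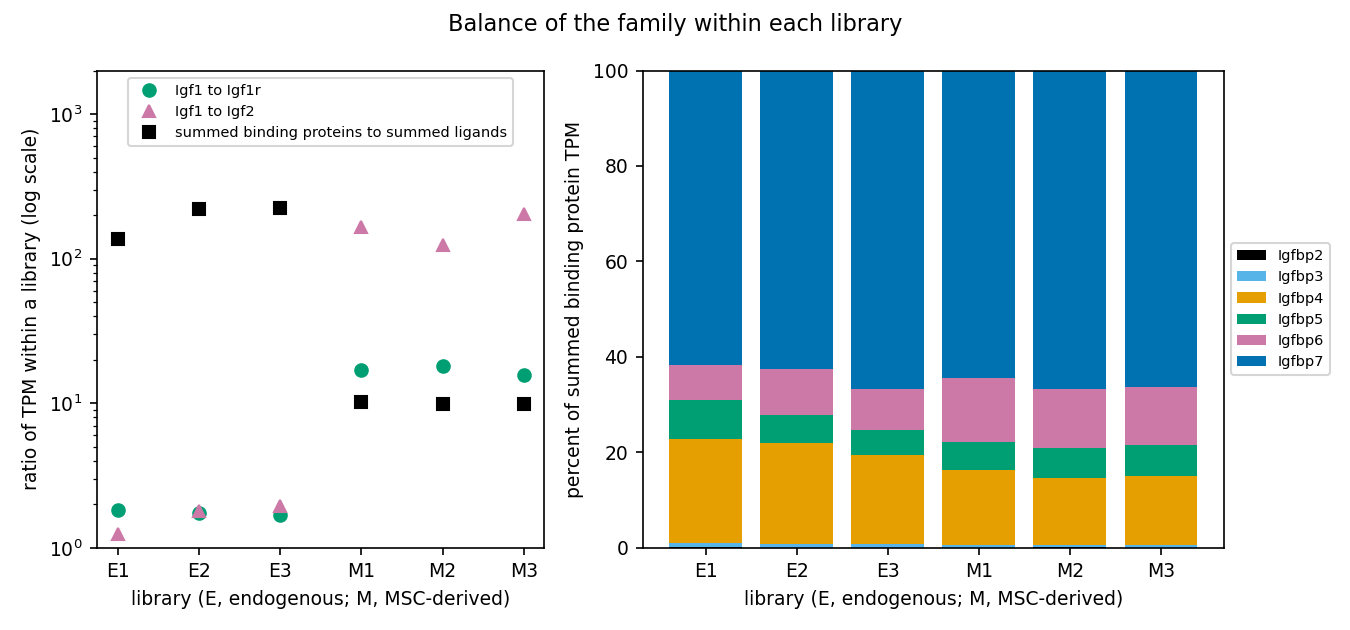
Left, ratios of TPM within each library on a log scale for *Igf1* to *Igf1r*, *Igf1* to *Igf2* and summed binding proteins to summed ligands, and right, each binding protein as a percent of their summed TPM, for endogenous (E) and MSC-derived (M) libraries. The ratio of *Igf1* to *Igf1r* is 1.70 to 1.82 in the E libraries and 15.8 to 18 in the M libraries, while *Igfbp7* takes the largest share of the pool in all 6.

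Markers of skeletal cells fell alongside *Igf2* and the binding proteins. Among all genes tested, 30.3% were called lower and 31.3% higher. All 10 chondrocyte markers were lower in the MSC-derived libraries, where they summed to 2410 to 2486 TPM against 26431 to 29668 TPM, and all 8 osteoblast markers were lower, with 1352 to 1360 TPM against 60243 to 74795 TPM. The endogenous libraries, labelled as chondrocytes too, thus held more TPM of the osteoblast list than of the chondrocyte list, with *Bglap* at 35346 and *Col1a1* at 20379 TPM. The defining chondrocyte markers *Col2a1*, *Acan* and *Sox9* had 120.8, 3.75 and 13.4 TPM in the MSC-derived libraries and 12968, 239.7 and 626.2 TPM in the endogenous ones, so they were present but low in libraries labelled as chondrocytes. *Prg4*, on the same list, fell least, with 1999.9 against 3985 TPM (log2 fold change -0.51, edgeR), and made up most of the MSC-derived sum. Of 10 markers on a list for adipose stromal cells, the source tissue of the injected cells, 7 were lower and 1, *Pi16*, was higher. *Dpp4* and *Ly6a* did not pass the test. The list summed to 1856 to 1879 TPM against 16436 to 20699 TPM. *Col1a2* and *Dcn* made up most of the endogenous sum, at 8586 and 7366 TPM. *Pi16* had 52.4 against 20.9 TPM and *Dpp4* 1.94 against 1.18 TPM, so the fall of the sum does not speak for each marker. *Ly6a* was called lower without endogenous replicate 1 (log2 fold change -0.21, adjusted p = 0.00151, edgeR) and by limma on log2(TPM + 1), which made 8 of 10. Of the 6 adipocyte markers that were tested, 4, *Fabp4*, *Pparg*, *Lpl* and *Cd36*, were higher and *Adipoq* and *Cidec* were lower, *Cidec* losing its call without any 1 of the MSC-derived libraries. Of 7 endothelial markers 4 were higher and 3 did not pass, and only 1 was higher at an adjusted p threshold of 0.001 (edgeR). Of the 7, 6 were higher without endogenous replicate 1, *Emcn* and *Tek* being added (adjusted p = 0.000118 and 0.00583, edgeR). Without that library 3 adipocyte markers were lower in place of 2. The part of these cells in the levels of the IGF genes was not tested.

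Relatives of the family were split. For this list and those that follow, the shares over all genes tested were 31.3% called higher and 30.3% called lower. *M6pr*, the cation-dependent mannose 6-phosphate receptor that shares the enzyme cargo of *Igf2r* but does not bind IGF2, had 205.8, 211.0 and 205.9 TPM in the MSC-derived libraries and 67.2, 62.9 and 67.1 TPM in the endogenous ones, so it rose (log2 fold change 2.10, SE 0.07, adjusted p = 4.09e-07, edgeR) while *Igf2r* fell. *Insr*, the insulin receptor, was called higher by edgeR (log2 fold change 0.45, SE 0.11, adjusted p = 0.00859), but its mean level was 5.52 TPM in either group and limma on log2(TPM + 1) did not call it. *Kazald1* and *Esm1*, related secreted proteins with an IGF-binding type domain, fell, with log2 fold changes of -4.23 and -4.63. These 4 were the tested genes of a list of 10, of which *Ins1* and *Ins2* were not analysed here. *Igfals*, whose product holds IGF complexes in blood, had 43 and 34 counts in endogenous replicates 2 and 3 and at most 2 in any other library. The filter left it out because too few libraries held enough counts. *Igfbp1*, *Igfbpl1* and *Insrr* had at most 6 counts in any library, too few for the filter. In this list 3 genes were called lower in place of 2 without endogenous replicate 1, by DESeq2 and with no filter. The added gene was not among the 4 tested in the main fit, and of the others only *Igfals* had more than 6 counts in any library.

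Among 23 tested proteases and partners of the binding proteins, 15 were lower, 2 were higher and 6 did not pass, with a median log2 fold change of -1.08. *Pappa*, which encodes the protease that frees IGF from IGFBP4, had 0.19, 0.07 and 0.04 TPM in the MSC-derived libraries and 11.2, 10.5 and 9.45 TPM in the endogenous ones. The MSC-derived levels rested on 41, 15 and 7 counts and lay far below the endogenous ones, with a log2 fold change of -6.22 by edgeR (SE 0.43, adjusted p = 1.17e-05). Its inhibitor *Stc2* and the protease *Adam12* fell too, with log2 fold changes of -5.65 and -4.68. *Ctsd*, the lysosomal protease cathepsin D, rose, with a log2 fold change of 3.85 (SE 0.15, adjusted p = 5.69e-07), from 534.5 ± 65.1 to 5737 ± 98.0 TPM (SD, n = 3 each), and *Tmem219*, a receptor for IGFBP3, had a log2 fold change of 0.94. *Vtn*, *Itga6*, *Itgb3*, *Lrp1*, *Plau* and *Adam9* did not pass. Without endogenous replicate 1, 3 genes of the list were higher and 18 lower, *Adam9* being called higher (adjusted p = 5.00e-09, edgeR) and *Vtn*, *Itgb3* and *Itga6* lower (adjusted p = 0.00111, 0.00118 and 0.0340). With limma on FPKM or with library totals alone 4 genes of this list were called higher in place of 2.

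In the growth hormone axis 7 of 9 genes were lower and *Stat5b* and *Sh2b1* did not pass, with a median log2 fold change of -1.32. *Ghr*, the growth hormone receptor, had 4.45, 4.86 and 5.36 TPM in the MSC-derived libraries and 85.5, 55.1 and 63.9 TPM in the endogenous libraries. Its log2 fold change was -3.67 by edgeR (SE 0.22, adjusted p = 5.71e-06). *Socs2* and *Socs3*, feedback inhibitors of this and other cytokine receptors, fell, with log2 fold changes of -2.88 and -2.59. *Sh2b1* was called lower too without endogenous replicate 1 (adjusted p = 0.0297, edgeR), which made 8 of 9, and limma on log2(TPM + 1) called all 9 lower. *Jak2*, the kinase bound to the receptor and 1 of the 7, lost its call with library totals alone and on removal of any 1 of the MSC-derived libraries or of endogenous replicate 2 or 3.

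Of 5 tested genes that act on *Igf2* RNA or on imprinted genes, *Plagl1*, itself an imprinted transcription factor, fell from 18.7 to 0.353 TPM, a log2 fold change of -5.27, and *Igf2bp2*, which binds *Igf2* mRNA, had a log2 fold change of -1.0. *Igf2bp3*, *Zfp57* and *Ctcf* did not pass, and the median log2 fold change of the 5 was -1.0. *Ctcf* was called higher without endogenous replicate 1 (log2 fold change 0.36, adjusted p = 0.000262, edgeR).

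Downstream of the receptor, 7 of 13 adaptor genes were lower, 1 was higher and 5 did not pass, with a median log2 fold change of -0.74. *Irs1*, the first docking protein of the receptor, had 0.39, 0.33 and 0.30 TPM in the MSC-derived libraries and 12.6, 6.15 and 7.09 TPM in the endogenous ones, with a log2 fold change of -4.18 by edgeR (SE 0.27, adjusted p = 7.37e-06). *Grb14* and *Grb10*, adaptors that restrain insulin and IGF receptors, fell, with log2 fold changes of -4.55 and -3.56. *Grb2*, which links receptors to RAS, rose, with a log2 fold change of 1.41, and *Sos1*, *Sos2*, *Shc1*, *Ptpn1* and *Rack1* did not pass. *Shc1* was called lower without endogenous replicate 1 (log2 fold change -0.48, adjusted p = 1.62e-07, edgeR), which made 8 of 13. Limma on log2(TPM + 1) called 10 of the 13 lower, *Rack1* among them, whereas *Rack1* was called higher with library totals alone and by limma on FPKM.

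Of 22 genes of PI3K, AKT and mTOR signaling, 11 were lower, 3 were higher and 8 did not pass, and the median log2 fold change of -0.30 was nearer to that of all genes. Shares over all genes tested were 30.3% lower and 31.3% higher. *Foxo1*, a transcription factor that AKT shuts out of the nucleus, and the catalytic subunit *Pik3ca* fell, with log2 fold changes of -2.13 and -1.11. *Pik3cb*, another catalytic subunit, rose, with a log2 fold change of 1.79 (SE 0.41, adjusted p = 0.00625, edgeR). *Eif4ebp1*, with a log2 fold change of 0.57 (adjusted p = 0.0482), and *Akt1*, with 0.37 (adjusted p = 0.0114), were called higher as well, but both lost the call with upper-quartile scaling and by limma on log2(TPM + 1), where *Akt1* turned to -0.06. *Eif4ebp1* lost it as well without any 1 of the MSC-derived libraries or endogenous replicate 2, and *Akt1* without MSC-derived replicate 1. The genes that did not pass included *Rictor*, *Rptor*, *Pdpk1*, *Tsc2*, *Tsc1*, *Gsk3b* and *Mtor*. Without endogenous replicate 1, 6 of the 22 were called higher, and without MSC-derived replicate 1 only 1 was. The lower calls were 8 in place of 11 without MSC-derived replicate 1 or 3. At an adjusted p threshold of 0.001 (edgeR), 3 were lower and 0 were higher.

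Of 9 RAS and MAPK genes, 4 were higher and 5 did not pass, with a median log2 fold change of 0.20. The share called higher over all genes tested was 31.3%. *Nras*, *Mapk3* and *Map2k1* had log2 fold changes of 0.73, 0.56 and 0.50 (adjusted p = 0.000663, 0.000905 and 0.0039, edgeR). The 4 genes lost their call by limma on log2(TPM + 1), a change of test and unit as well as of scaling, which called 3 of the 9 lower. Where only the scaling was changed, 3 were higher with RLE factors, 3 higher and 1 lower with upper-quartile factors, and 6 higher with library totals alone. Without endogenous replicate 1 there were 5 higher and 2 lower, *Hras* among the lower. Those that did not pass included *Hras* and *Braf*.

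**Figure D4:**
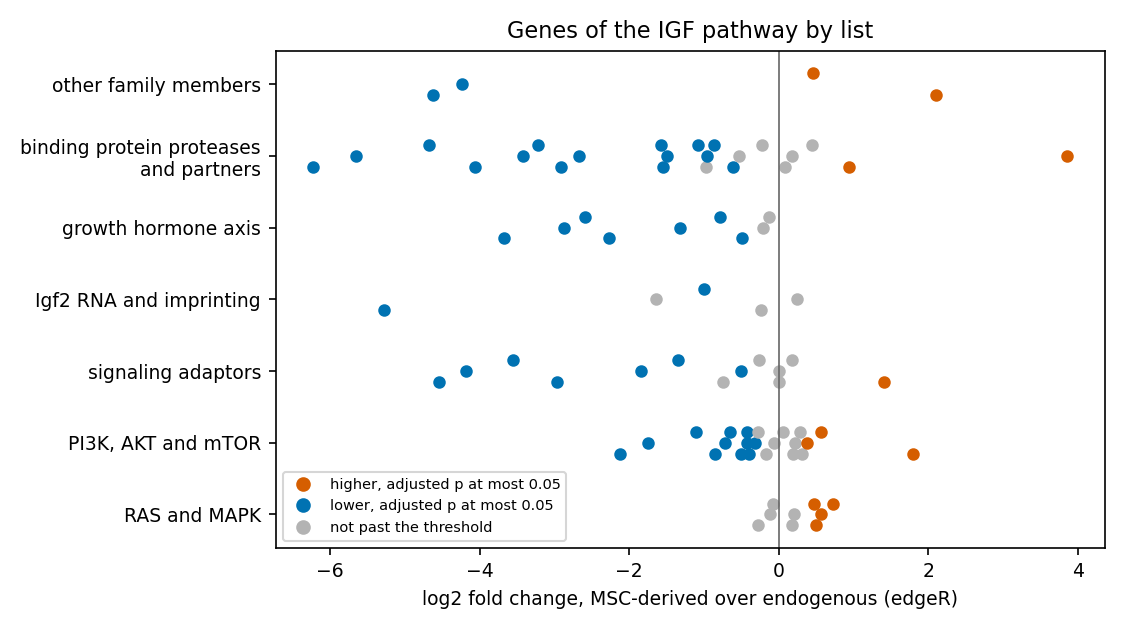
Log2 fold changes by edgeR, MSC-derived over endogenous, of the tested genes of 7 IGF pathway lists, 1 point a gene, in orange where higher, blue where lower and grey where the adjusted p was over 0.05. Points spread far to the left for proteases, the growth hormone axis and adaptors, down to -6.22 for *Pappa*, and gather near 0 for the PI3K and RAS lists.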

How the data were processed

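The data were bulk RNA-seq of 3 MSC-derived and 3 endogenous libraries of Tomato+ cells. Per the study's methods, the authors used SOAPnuke to filter reads, HISAT2 and Bowtie2 for alignment and RSEM for quantification. The submitters' processing notes name mm9, Bowtie2 2.2.5 and RSEM 1.2.12, and since the versions in the methods differ, which were used is unsure. No coordinates on mm9 are given. The authors deposited, for every library, RSEM expected counts without normalization, FPKM, TPM and a scaled signal. The deposited FPKM values divide by transcript length and library size, and summed to 808701 to 813572 in the MSC-derived and 504768 to 573603 in the endogenous libraries. The deposited TPM values sum to the same total in each library. The deposited signal is the expected count, rounded up, times a factor per library, and served only to check the counts. The 24 columns of single samples were mapped by name, 0 were left unmapped and 8 columns of group averages were not used.

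Expected counts were rounded, which changed 20.6% of the values, and tested by edgeR 4.0.16 under R 4.3.3 (TMM, filterByExpr, glmQLFit, glmQLFTest, no block), with Benjamini-Hochberg adjustment over 14289 genes and a threshold of 0.05. The standard error is the log2 fold change divided by the square root of F. Ratios within a library used TPM. On simulated counts for 14289 genes with 200 changed, the test recovered 47% of 2-fold and 80% of 4-fold changes, all with the right sign, and 7.30% of calls were false. A first limit of over 80% on the 4-fold changes was not met, because low genes were missed, and the limit was then set on genes with a mean log2 CPM over 2, of which 97.5% were recovered. With no change simulated, 1 gene was called. The simulation gave both groups the same dispersion for each gene. In the data, edgeR's common coefficient of variation between libraries was 6.77% in the MSC-derived and 35.3% in the endogenous group, and 61.6% of genes were called. The rates therefore hold for the simulated setting and not for these libraries. The alternatives were DESeq2 1.42.0, other scalings and filters, the replicate number as a block, leaving out 1 library at a time, tests by limma 3.58.1 of log2 FPKM and TPM, and a stricter threshold.

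The 10 genes and the lists were chosen with earlier results of these data known. Named are all 10 genes, up to 3 genes past the threshold in each direction of each pathway list, those of a list not past it, the 5 genes nearest to *Igf1* and to *Igf2*, the untested relatives of the family and marker genes. A few genes that this rule names are not reported here. Figures were drawn with matplotlib 3.10.9.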

Additional observations from a re-analysis of the deposited data

How the results depend on the processing

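The direction of all 10 genes held in every alternative, and 173 of 179 alternatives for single genes kept the call. The 6 that did not all concern *Igfbp2*, whose few counts limit its precision and which a filter of 1 CPM in 3 libraries left untested. At an adjusted p of 0.001, 2134 genes were called higher and 2380 lower, in place of 4468 and 4333, and 8 of the 9 lower genes of the family held. The median shift of the log2 fold change was 0.12 with library totals, 0.13 and 0.14 by limma on log2(FPKM + 1) and log2(FPKM + 0.1), and -0.40 by limma on log2(TPM + 1). Limma changed the test and the unit as well, and it did not move all genes alike. On log2(TPM + 1), *Igf2* went from -4.05 to -2.99 and *Igf1* from 2.54 to 2.04. That setting called 3124 genes higher and 5962 lower, so TPM levels of the MSC-derived cells mostly lie lower against the endogenous ones than edgeR's folds. With counts in place of TPM, which leaves out length, *Igf1* to *Igf1r* was 9.88 in the MSC-derived and 1.02 in the endogenous libraries, and binding proteins to ligands 2.05 and 54.5. Leaving out each library gave 3672 to 5563 genes higher and 3761 to 5686 lower, the most without endogenous replicate 1.

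Same-numbered libraries did not deviate together (correlations of 0.0129, 0.00221 and 0.0178). The MSC-derived libraries differed little from each other, so this check could miss a pairing and does not show that the numbers pair nothing. With the replicate number as a block, 4103 genes were higher and 3920 lower, and among the 10 genes 1 was higher and 8 lower, *Igfbp2* having an adjusted p of 0.0703 and the other 9 keeping their call. The alternatives for pathway and marker lists were chosen after seeing the data.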
